A study of Mus musculus with 10 samples.

Results

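Voltage-gated calcium channels were followed in the hippocampus through 10 of their subunit genes. These were chosen by name, with earlier results of these data known. They were the pore-forming subunits Cacna1a, Cacna1b, Cacna1c, Cacna1d, Cacna1e, Cacna1g and Cacna1h, and the accessory subunits Cacnb3, Cacnb4 and Cacna2d1. Every array probe whose RefSeq accession belonged to 1 of these genes was taken, which gave 15 of the 39429 probes, for 10 of the 20144 gene symbols on the array. Adult hippocampal RNA from 5 samples of mice with a conditional knockout of DLK (cKO) was compared with that of 5 DLK wild-type (WT) samples. DLK, the dual leucine zipper kinase, acts upstream of JNK signalling in neurons and is encoded by Map3k12. All mice, WT included, had been fed tamoxifen for 3 weeks. The sources used here do not name the recombinase, the cells in which it acts, the exons it removes, or the sex and exact age of the mice. Each sample was labelled with Cy5 and hybridised on its own 2-colour Agilent array against the same Cy3-labelled commercial mouse reference RNA, so the values are log2 ratios of hippocampus over reference, with n = 5 arrays per genotype. The labels do not say whether each sample came from 1 mouse, so the p-values measure the spread between these samples.

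Voltage-gated calcium channels open when the membrane depolarises and turn electrical activity into calcium entry, which drives transmitter release, dendritic excitability and activity-dependent gene expression. The pore-forming subunit sets the channel type. Cacna1a and Cacna1b carry the P/Q-type and N-type currents of presynaptic terminals, Cacna1c and Cacna1d the L-type currents of somata and dendrites, Cacna1e the R-type current, and Cacna1g and Cacna1h the low-threshold T-type currents. Beta subunits such as Cacnb3 and Cacnb4 bind the pore from the cytoplasm and promote its surface expression and opening, except for T-type pores, which do not require them. Cacna2d1 encodes an extracellular alpha-2-delta subunit that promotes trafficking to the membrane and is a target of gabapentin.

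RefSeq promoter windows of build GRCm38.p6, each 300 bases long, were held for 7 of the 10 genes, 13 windows in all. They were searched because JNK acts on AP-1 factors. The AP-1 letters TGANTCA, which read the same on both strands, were in 0 of the 13 windows and in 7.81% of all 32851 windows, and the cAMP response element TGACGTCA was in 0 of the 13 and in 1.79% of all. The windows varied widely in composition. Their median GC content was 69.7% against 52.7% over all windows, and their median number of CpG dinucleotides was 27 against 7, but the range of GC content was 40.3% to 87.3% and that of CpG 3 to 63, so some of the 13 lay below the median of all windows. The windows of lowest and highest GC content both belonged to Cacna1d and mark different annotated starts of that gene. They are shown 5′ to 3′ on the minus strand with each CpG in capitals, to set the extremes side by side. The first, at chr14:30491107-30491406, holds 4 CpG and the second, at chr14:30353437-30353736, holds 63.
Cacna1d window with 40.3% GC: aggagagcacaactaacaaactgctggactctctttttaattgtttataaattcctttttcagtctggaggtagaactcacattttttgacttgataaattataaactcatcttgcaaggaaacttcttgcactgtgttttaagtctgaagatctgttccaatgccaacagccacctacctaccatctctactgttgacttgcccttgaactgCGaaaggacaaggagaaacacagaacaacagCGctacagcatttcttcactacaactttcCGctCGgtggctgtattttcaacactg
Cacna1d window with 87.3% GC: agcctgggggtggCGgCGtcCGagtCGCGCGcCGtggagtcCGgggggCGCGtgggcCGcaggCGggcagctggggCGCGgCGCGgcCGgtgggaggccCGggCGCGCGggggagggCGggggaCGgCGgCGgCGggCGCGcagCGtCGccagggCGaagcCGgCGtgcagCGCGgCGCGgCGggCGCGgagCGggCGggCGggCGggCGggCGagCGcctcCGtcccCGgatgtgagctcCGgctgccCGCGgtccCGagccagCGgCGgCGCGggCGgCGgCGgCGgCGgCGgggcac

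In the array data as a whole, the median Cy5 signal was 146 to 191 on cKO arrays and 171.75 to 202 on WT arrays, over a background of 29 to 31. In Cy5, 69.4% to 76.1% of the probes on an array exceeded background clearly by the scanner's own test. Correlations between arrays over kept probes ranged from 0.979 to 0.996. Testing was limited to the 28693 probes that met that criterion on 5 or more arrays. Map3k12 checked the labels: its log2 ratio was 0.51 ± 0.24 (SD, n = 5) in cKO and 1.93 ± 0.19 (SD, n = 5) in WT hippocampus, with no overlap, a difference of −1.41 (SE 0.12, limma adjusted p = 0.000507). On the array of cKO replicate 2 the reference signal at that probe was 314, against 102.5 to 128 on the other 9 arrays, and this sample had the lowest ratio, 0.11. The deleted exons are not stated, so whether the single probe lies within them is not known. The tissue label was set against hippocampal markers. The mean log2 ratio of CA1 pyramidal cell genes was 2.51 to 2.76 on cKO arrays and 2.46 to 2.77 on WT arrays, and that of dentate granule cell genes was 1.89 to 2.35 on cKO arrays and 2.04 to 2.33 on WT arrays. Of the 3 slides, the first carried 4 cKO arrays, slide 2 carried 1 cKO and 3 WT arrays and slide 3 only 2 WT arrays, so a comparison within a slide is possible only on slide 2 and there rests on cKO replicate 2.

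Calcium channel subunit mRNA differed little between cKO and WT hippocampus. Of the 15 probes, 13, for 8 genes, were kept and tested, and none passed the threshold of adjusted p under 0.05 (limma, all adjusted p = 0.99995). Over all kept probes 3 passed, or 0.0105%. In this fit none of the 13 had an unadjusted p under 0.05 either, against 3.82% of all kept probes, while within slide 2 there were 4, against 2390 of all 28693. On none of the 13 did the genotypes' values fail to overlap, against 0.756% of all kept probes. The largest positive log2 difference was 0.13 for Cacnb4 and the largest negative one was −0.14 for the brighter Cacna1d probe. In total 6 probes had higher and 7 had lower mean values in cKO, and their median difference was −0.02, against 0.0079 over all kept probes. Because the test covers only the probes with signal, these counts do not speak for the other 2 probes. The 95% intervals of all 13 lay between 0.775-fold and 1.29-fold of the WT ratio, and 98.6% of all kept probes had intervals within 1.5-fold either way. These intervals leave out the slides, which nearly coincide with genotype. With slide as a fixed block the estimates of Cacna1a (0.39), Cacna1g (0.38) and Cacnb4 (0.41) lay above their own upper bounds of 0.32, 0.26 and 0.37, with limma adjusted p = 0.917 for each. Only slide 2 held both genotypes, so these estimates are the differences within slide 2, of 1 cKO array against 3 WT arrays. Intervals and ratios share the limit that an offset of 50, added after background correction, pulls dim spots towards a ratio of 1. In whole-tissue RNA, fewer cells of a type and less RNA per cell cannot be told apart.

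**Figure D1:**
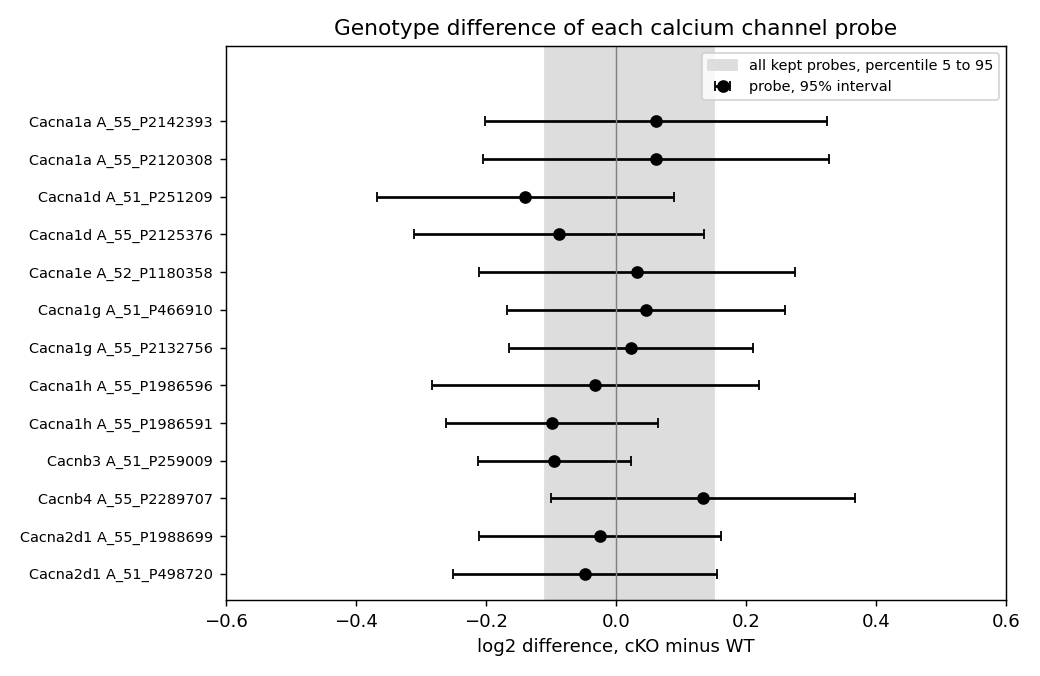
Log2 difference, cKO minus WT, of the 13 tested calcium channel probes, with points for the estimate and bars for its 95% interval (limma, n = 5 arrays per genotype); the grey band holds the percentile 5 to 95 range of all kept probes. Every interval crosses 0, from the lowest bound at −0.37 for Cacna1d to the highest at 0.37 for Cacnb4.

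In this normalisation the presynaptic pore gene Cacna1a had the fourth highest ratio to the reference RNA, 6.06-fold in cKO and 5.80-fold in WT. Its brighter probe, A_55_P2142393, had log2 ratios of 2.57, 2.83, 2.34, 2.71 and 2.55 in cKO samples 1 to 5 and of 2.52, 2.42, 2.39, 2.37 and 2.98 in WT samples 1 to 5. WT replicate 5 stood above every other sample, and the other 4 WT samples lay within the range of the cKO samples. The means were 2.60 ± 0.18 in cKO and 2.54 ± 0.26 in WT (SD, n = 5 each), a difference of 0.06 (SE 0.12). The second probe, A_55_P2120308, differed by 0.06 (SE 0.12) as well. Within slide 2 the difference of the brighter probe was 0.39 (limma adjusted p = 0.593); that slide held cKO replicate 2, the highest cKO sample, and not WT replicate 5. The N-type pore gene Cacna1b could not be compared. Its only probe, for transcript NM_001042528, had Cy5 signals of 39 to 50 on cKO arrays and 37 to 62 on WT arrays, over a local background of 27.5 to 34. It was well above background on 0 of 5 cKO arrays and 1 of 5 WT arrays.

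The L-type genes differed in how well they could be seen. Cacna1d, whose channel opens at relatively negative potentials and which also paces neurons, had log2 ratios of 1.98, 2.14, 1.94, 2.41 and 1.91 in cKO samples and of 2.16, 2.17, 2.20, 2.04 and 2.49 in WT samples at probe A_51_P251209. In 3 of the 5 cKO samples the value was below that of every WT sample, and the other 2 lay within the WT range. The means were 2.07 ± 0.21 in cKO and 2.21 ± 0.17 in WT (SD, n = 5 each), with a difference of −0.14 (SE 0.11). The dimmer probe, A_55_P2125376, differed by −0.09 (SE 0.10). Within slide 2 the brighter probe differed by 0.011. In the reference channel that probe was well above background on 1 of the 10 arrays, so its ratio to the reference is set largely by the offset. Its mean in WT was 2.21 with an offset of 50 and 4.37 with plain background subtraction, and in the Cy5 channel alone the genotypes differed by −0.15. Cacna1c, the main L-type pore gene of forebrain neurons, had 1 probe on the array, for transcript NM_001159533. That probe gave Cy5 signals of 41.5 to 57 on cKO arrays and 48.5 to 71 on WT arrays over a background of 27 to 32, and it was well above background on 1 of 5 cKO and 2 of 5 WT arrays. No level of Cacna1c or Cacna1b is therefore given, and a dim probe does not show that the gene is off.

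**Figure D2:**
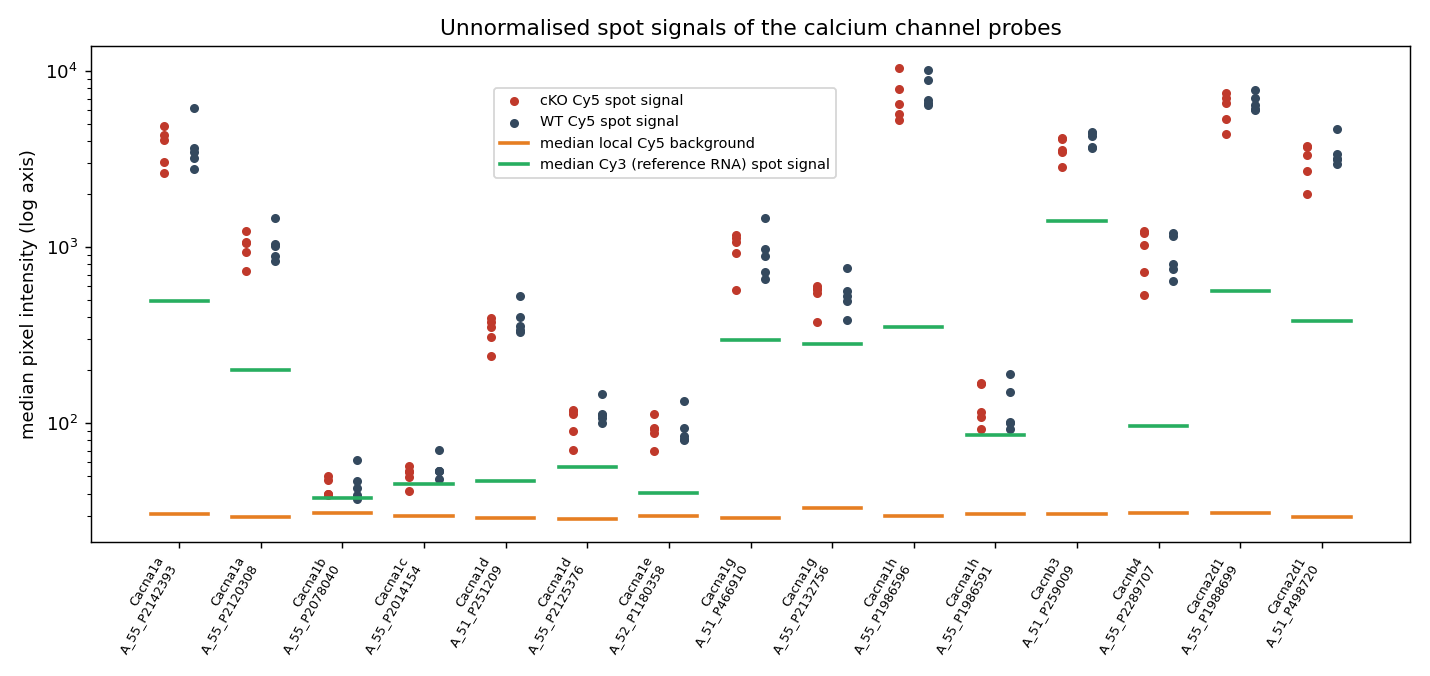
Unnormalised median pixel intensity, on a log axis, of the 15 probes on 5 cKO and 5 WT arrays (points), with the median local Cy5 background (orange) and the median signal of the Cy3 reference RNA (green) of each spot. The Cacna1b and Cacna1c points, at 37 to 71, lie just above background, while the brighter Cacna1h probe reached 10366 in cKO and 10162.5 in WT.

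Cacna1e, the R-type pore gene, was dim but measured on every array. Its log2 ratios were 0.97, 0.93, 0.58, 0.97 and 0.56 in cKO samples and 0.65, 0.75, 0.60, 0.74 and 1.10 in WT samples. The cKO values fell into a higher set of 3 and a lower set of 2, and the WT values covered nearly the same range. The means were 0.80 ± 0.21 in cKO and 0.77 ± 0.19 in WT (SD, n = 5 each), the difference was 0.03 (SE 0.11), and within slide 2 it was 0.22. The reference spot was well above background on 0 of 10 arrays, so this ratio too depends on the offset.

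Cacna1h, a T-type gene, had the highest mean ratio of the 8 genes with a tested probe in this normalisation. It did not with plain subtraction or the processed signals, where the mean of Cacna1d was higher, though within the SD with plain subtraction. It had log2 ratios of 4.02, 3.67, 3.96, 4.35 and 3.97 in cKO samples and of 3.95, 4.18, 4.04, 3.76 and 4.19 in WT samples at probe A_55_P1986596, about 16 times the reference in either genotype (15.9 in cKO and 16.3 in WT). cKO replicate 4 was the highest and cKO replicate 2 the lowest of all 10, so the WT values lay inside the cKO range. The difference was −0.03 (SE 0.12) and within slide 2 it was −0.29. Dentate granule cell genes, a list of 10 that were all tested, ran alongside: their mean log2 ratio was 2.25, 1.89, 1.90, 2.35 and 2.07 in cKO samples and 2.12, 2.10, 2.05, 2.04 and 2.33 in WT samples. In both series cKO replicate 4 was the highest and cKO replicate 2 the lowest cKO sample, and WT replicate 5 was the highest and WT replicate 4 the lowest WT sample. The lowest places in the granule cell list were near ties, 1.894 against 1.899 in cKO replicate 3 and 2.038 against 2.047 in WT replicate 3. For Cacna1h, cKO replicate 3 was at 3.96, well above the lowest value of 3.67. Its highest WT places were a near tie, 4.192 in WT replicate 5 and 4.176 in WT replicate 2, where the granule cell list was at 2.10. CA2 and CA3 pyramidal cell genes also had cKO replicate 4 as highest cKO sample (2.24) and WT replicate 4 as lowest WT sample (1.83). Their lowest cKO and highest WT samples were others. The granule cell list was among several cell type lists that were read. The part of granule cell content in the Cacna1h values was not tested. The other Cacna1h probe, A_55_P1986591, written for transcript NM_001163691, had a mean of only 0.31 ± 0.13 in cKO and 0.41 ± 0.12 in WT (SD, n = 5 each), with a difference of −0.10 (SE 0.08).

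Cacna1g, a T-type pore gene that is abundant in thalamic relay neurons as well as in the hippocampus, had log2 ratios of 1.39, 1.62, 1.35, 1.35 and 1.11 in cKO samples and of 1.10, 1.29, 1.29, 1.35 and 1.57 in WT samples at its brighter probe, A_51_P466910. The groups overlapped almost fully, with cKO replicate 2 and WT replicate 5 at the top. The difference was 0.05 (SE 0.10), and 0.02 (SE 0.09) at A_55_P2132756. Within slide 2 it was 0.38 (limma adjusted p = 0.593), and without cKO replicate 2 the sign turned, at −0.02. Thalamic marker genes had higher means in all cKO samples: of 12, 11 were tested, all 11 had higher values in cKO, and the list mean was 0.71 to 1.01 on cKO arrays and 0.51 to 0.69 on WT arrays. None of the 11 passed the threshold, and 2 had an unadjusted p under 0.05. Within genotypes the thalamic list was highest in cKO replicate 1 and WT replicate 1, where Cacna1g was at 1.39 and 1.10. Inhibitory interneuron genes had higher means in all cKO samples as well, 3.47 to 3.54 against 3.33 to 3.45 in WT samples. The part of the thalamic genes in the Cacna1g values was not tested.

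The beta subunit genes held the lowest p and the largest positive difference. Cacnb3, on chromosome 15 like Map3k12, had the lowest unadjusted p of the 13 probes, 0.106 (limma adjusted p = 0.99995). Its log2 ratios were 1.20, 1.06, 1.20, 1.16 and 1.13 in cKO samples and 1.15, 1.29, 1.32, 1.26 and 1.20 in WT samples, of which 2 cKO samples lay below every WT sample and 0 above. The difference was −0.09 (SE 0.05), with an interval from 0.863-fold to 1.02-fold, the narrowest of the 13, and within slide 2 it was −0.17. Cacnb4, the beta subunit that is lost in the lethargic mouse, had log2 ratios of 2.69, 3.02, 2.60, 2.84 and 2.47 in cKO samples and of 2.59, 2.46, 2.39, 2.79 and 2.74 in WT samples. In 2 cKO samples, replicates 2 and 4, it exceeded all WT samples. Its difference was 0.13 (SE 0.11), with an interval from 0.933-fold to 1.29-fold, and within slide 2 it was 0.41 (limma adjusted p = 0.593).

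Cacna2d1 was measured by a pair of probes that gave nearly the same picture. The brighter, A_55_P1988699, had log2 ratios of 3.36, 3.16, 2.97, 3.34 and 2.96 in cKO samples and of 3.18, 3.19, 3.13, 3.11 and 3.31 in WT samples. The cKO values reached both above and below all WT values, with an SD of 0.19 in cKO and 0.08 in WT. The difference was −0.02 (SE 0.09), and at A_51_P498720 it was −0.05 (SE 0.09). Within slide 2 the brighter probe differed by 0.00313.

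**Figure D3:**
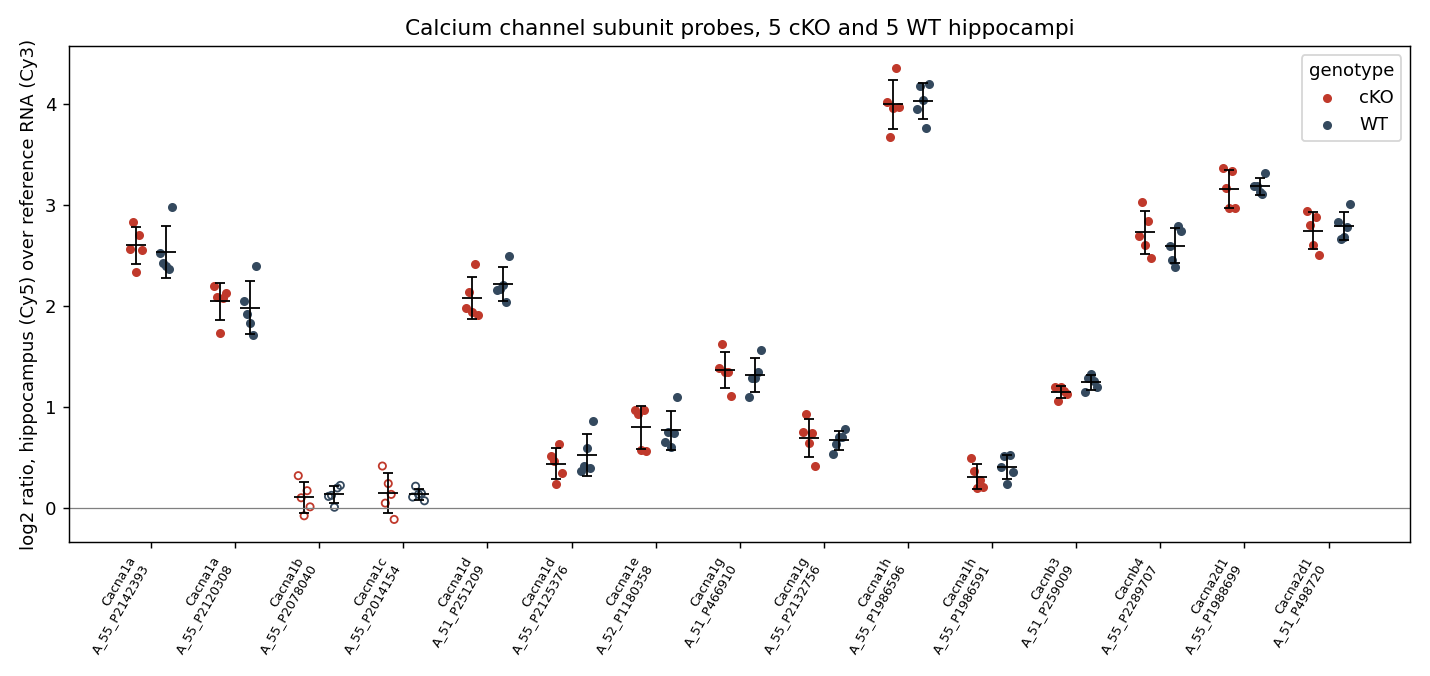
Log2 ratio of hippocampus over reference RNA for each of the 15 probes in 5 cKO (left, red) and 5 WT (right, dark) samples; bars mark the mean and SD, and open circles mark the Cacna1b and Cacna1c probes that were not tested. The genotypes overlap at every probe, and the brighter Cacna1h probe has the highest mean, 3.99 in cKO and 4.02 in WT.

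The order of the ratios was the same in both genotypes when the brightest kept probe stood for each gene. It ran from Cacna1h through Cacna2d1, Cacnb4, Cacna1a, Cacna1d, Cacna1g and Cacnb3 to Cacna1e. Cacna1h stood clear of Cacna2d1 in both genotypes, as did Cacna1d of Cacna1g and Cacnb3 of Cacna1e, with no overlap of their samples. The samples of Cacnb4 and Cacna1a, of Cacna1a and Cacna1d, and of Cacna1g and Cacnb3 overlapped in both genotypes, and those of Cacna2d1 and Cacnb4 overlapped in cKO only. These are ratios to a reference RNA, not amounts, and the reference differs for each gene. The order also depends on the background method. For Cacna1d and Cacna1e the reference spots were near background. With plain subtraction Cacna1d stood at 4.30 ± 1.19 in cKO and 4.37 ± 0.17 in WT (SD). Cacna1h stood there at 4.26 ± 0.23 in cKO and 4.30 ± 0.17 in WT, so their gap lay within these SDs. With the processed signals Cacna1d stood at 4.67 ± 1.06 in cKO and 5.30 ± 0.54 in WT. Cacna1h was at 4.06 ± 0.24 in cKO and 4.10 ± 0.18 in WT. Cacna1e then stood at 3.40 in cKO and 3.46 in WT, above Cacnb3 at 0.96 in cKO and 1.05 in WT. Cacnb4 also changed place. With plain subtraction it stood at 3.59 in cKO and 3.43 in WT, above Cacna2d1 at 3.32 in cKO and 3.35 in WT.

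Probes of the same gene differed in level but not measurably in genotype effect. In 5 genes with 2 kept probes, the brighter minus the dimmer log ratio was compared between genotypes by an exact two-sided permutation test, in which the smallest possible p is 0.00794. The gap for Cacna1h was 3.68 ± 0.28 in cKO and 3.62 ± 0.24 in WT (SD, n = 5 each), with a difference of 0.07 (exact permutation p = 0.706). It was 1.63 ± 0.12 in cKO and 1.69 ± 0.08 in WT for Cacna1d (difference −0.05, exact permutation p = 0.452, the lowest of the 5). That gap depends on the offset, because the reference spots of both Cacna1d probes were near background: with the processed signals the probes stood at 4.67 and 1.39 in cKO and at 5.30 and 1.40 in WT. For Cacna1a, Cacna1g and Cacna2d1 the gap changed by −0.000357, 0.02 and 0.02. Adjusted over the 5 pairs, the exact permutation p was 0.883 to 0.984.

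Across samples of 1 genotype the subunit genes tended to rise and fall together. After each genotype's mean was removed, 20 of the 28 pairs among the 8 genes had a positive correlation over the 10 samples, with a median r of 0.48. These correlations share arrays and normalisation and are given as a description. The closest pair was Cacna1e with Cacna2d1 (r = 0.87). Cacnb3 ran against Cacna1a (r = −0.62) and Cacnb4 (r = −0.53). The mean deviation of the 8 genes was 0.21 in WT replicate 5 and 0.16 in cKO replicate 4 at the high end, and −0.15 in cKO replicate 5 and −0.12 in cKO replicate 3 at the low end. WT replicate 5 was the highest WT sample for 6 of the 8 genes, and cKO replicate 5 the lowest cKO sample for 5.

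**Figure D4:**
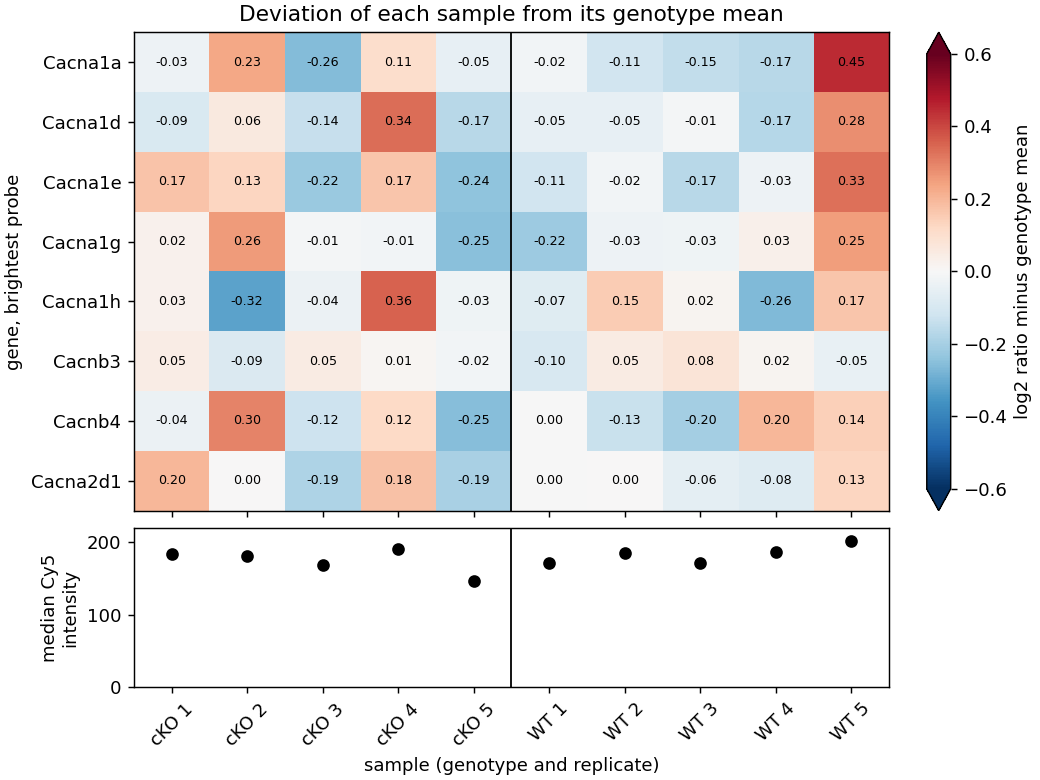
Upper panel: log2 ratio minus the mean of its genotype for the brightest kept probe of 8 calcium channel genes (rows) in each sample (columns; cKO left, WT right), printed in each cell. Lower panel: median Cy5 intensity of each array, which was highest in WT replicate 5 (202) and lowest in cKO replicate 5 (146).

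The pattern was not limited to the calcium channels. Of 16175 other named genes, 658 had a correlation of at least 0.9 with the mean deviation of the 8 genes and 668 ran against it with r of at most −0.9, together 8.20%. The 5 most alike were Rtf1 (r = 0.991), Lclat1 (0.986), Brpf1 (0.986), Supt5 (0.985) and Zswim8 (0.985), each over 10 samples. Rtf1 and Supt5 encode transcription elongation factors. The median Cy5 signal was highest on the array of WT replicate 5, at 202, and lowest on that of cKO replicate 5, at 146. Choroid plexus and ependymal genes had their lowest mean log2 ratio of all samples, 0.05, in WT replicate 5 and their highest, 2.10, in cKO replicate 5. Oligodendrocyte, astrocyte, microglia, and endothelial and pericyte genes had their lowest and highest means in the same samples. CA1 pyramidal cell genes were highest of all in WT replicate 5 (2.77), and cKO replicate 5 was their lowest cKO sample (2.51). The choroid plexus and ependymal list had 19 of 20 genes tested. It was 0.84 to 2.10 on cKO arrays and 0.05 to 0.97 on WT arrays. Oligodendrocyte genes, all 20 tested, were 3.42 to 3.69 on cKO arrays and 2.98 to 3.43 on WT arrays. All 19 tested choroid plexus genes and 18 of the 20 oligodendrocyte genes had higher values in cKO, none past the threshold but 12 and 14 of them at an unadjusted p under 0.05. The part of signal strength or cell content in the channel values was not tested.

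The remaining subunit genes of the family were read from the same test. Of 16 genes, 14 had a kept probe, 11 with higher and 3 with lower values in cKO. None passed (limma), with 1 at an unadjusted p under 0.05. The list also holds the Cacng genes. Among these, Cacng2, Cacng3, Cacng4, Cacng5, Cacng7 and Cacng8 all had higher values in cKO, by 0.03 to 0.24, and Cacng6 a lower one (−0.08). The median difference of the 14 genes was 0.09, against 0.0079 over all kept probes. The lowest p belonged to Cacna2d2, the alpha-2-delta gene mutated in the ducky mouse, at 4.15 ± 0.18 in cKO and 3.91 ± 0.18 in WT (SD, n = 5 each), a difference of 0.25 (SE 0.10, limma adjusted p = 0.99995). Its second probe differed by 0.19 (SE 0.10). Cacna2d3, another alpha-2-delta gene, differed by 0.11 (SE 0.06), and Cacng8, which encodes an auxiliary subunit of AMPA receptors, by 0.21 (SE 0.11). Cacna1i, the third T-type pore gene, had a log2 ratio of 4.26 ± 0.10 in cKO and 4.16 ± 0.05 in WT at its brighter probe. Cacna1s, the pore of skeletal muscle, was below the reference RNA at its kept probe, with −1.84 ± 0.12 in cKO and −1.87 ± 0.27 in WT, while Cacnb1, a beta subunit of skeletal muscle that is also expressed in brain, was at 0.92 in cKO and 0.82 in WT.

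Proteins that bind or regulate the channels, 28 genes all with a kept probe, had 18 higher and 10 lower values in cKO, a median difference of 0.07, and none past the threshold (5 at an unadjusted p under 0.05). Their lowest p belonged to Stac, an adaptor of L-type channels (0.21, SE 0.08), followed by the active zone genes Rims1 (0.17, SE 0.06) and Rims3 (0.15, SE 0.07), all with limma adjusted p = 0.99995. At the presynaptic terminal RIM proteins tether the channels that Cacna1a and Cacna1b encode. Of 29 genes of calcium handling and calcium-dependent signalling 27 were tested, with 24 higher and 3 lower values in cKO, a median of 0.06 and none past the threshold (2 at an unadjusted p under 0.05). The first by p were Itpr1, the calcium release channel of the endoplasmic reticulum (0.13, SE 0.05), and the kinase genes Camk2b (0.14, SE 0.06) and Camk2a (0.23, SE 0.12). Over all kept probes 54.7% had higher values in cKO.

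No slide difference passed the threshold for a channel gene, in a test of little power. Slide 1 held no WT arrays and slide 3 no cKO arrays, so slide beside genotype rested on few arrays. The test therefore cannot exclude a slide effect. Beside genotype, the F test of slide passed for 0.00% of the 28690 probes it could be computed for, with 1322 at an unadjusted p under 0.05, and for none of the 13 channel probes. Among those the lowest unadjusted p was 0.0588, for Cacna1d at A_55_P2125376 (limma adjusted p = 0.870).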

How the data were processed

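The deposited scanner files hold spot intensity values, unnormalised medians per spot and local background in each channel, made with Agilent Feature Extraction 11.0.1.1 per the file headers. The same deposited files hold intensity values that the software background-subtracted and dye-normalised, and 0 or 1 flags. The authors' deposited value table holds log2 ratios and was used as an alternative; the submitters' processing notes also list limma, with no settings. Its columns correlated with the log ratios computed here at 0.99998 or more, with medians of 0.0120 to 0.0204, so the table is on the log2 scale, has hippocampus on top and was not gene-centred.

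Spots marked as non-uniform were removed, backgrounds were corrected with normexp (offset 50) and log ratios were loess-normalised within arrays, with control spots at weight 0 (limma 3.58.1, R 4.3.3). Spots marked as population outliers were then left out. Genotypes were compared per probe with lmFit and eBayes of limma, cKO minus WT, two-sided, with Benjamini-Hochberg adjustment over 28693 probes. Probes were named by matching accessions without versions to RefSeq genes of assembly GRCm38.p6, which named 26581 of 39429 probes; the array design names another build, so coordinates are given for promoter windows only. All member genes and 3 genes of lowest p in each further list are named. The fit was tested on simulated data. The replicate numbers shared by the genotypes were not used to pair the samples in the main fit. The correlations of same-numbered deviations ran from −0.56 to 0.16, and so few values cannot exclude a pairing. The members and lists were chosen with earlier results of these data known. Array numbers limit the precision.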

Additional observations from a re-analysis of the deposited data

Results flagged for a closer look

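Far values were looked for in 30 groups, the 15 probes in each genotype, and 2 were found; chance alone marks about 1 in 20 such groups. Both belong to Cacna1a, on different probes and in different samples. At A_55_P2142393 WT replicate 5 was high, with a log2 ratio of 2.98, where the nearest WT sample was at 2.52 and the lowest at 2.37. At A_55_P2120308 cKO replicate 3 was low, with 1.73, where the nearest cKO sample was at 2.08 and the highest at 2.20.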

How the results depend on the processing

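None of the 13 channel probes passed the threshold in any of 26 alternatives. Among 208 values of the 8 genes, 186 kept the sign and 22 did not. The fixed slide block and the fit within slide 2 gave the same estimates, so they are not separate checks. The lowest limma adjusted p was 0.459, for Cacnb4 with array weights. Cacna1a (0.00349 to 0.39), Cacnb3 (−0.17 to −0.06) and Cacnb4 (0.06 to 0.41) kept their sign in all 26. Signs turned for Cacna1d (0.11), Cacna1h (0.11) and Cacna2d1 (0.0667) where marked spots stayed in the background step, for Cacna1e with the processed signals (−0.0578), for Cacna1d (0.0111) and Cacna2d1 (0.00313) with slide as a fixed block and within slide 2, for Cacna1h with slide as a random block (0.0284), and for Cacna1h (0.0235) and Cacna2d1 (0.0738) with array weights; the cause was not tested. Cacna1d ranged from −0.64 with the processed signals (adjusted p = 0.9998), below the interval given for it, to 0.11, and from −0.22 without cKO replicate 4 (unadjusted p = 0.0289) to −0.0689 with 1 array left out. With slide as a fixed block, 2 of the 13 probes had an unadjusted limma p under 0.05, against 1076 of all 28693. With array weights there were 2, against 3062 of all. With the Cy5 channel alone there was 1, against 714, and without cKO replicate 4 there was 1, against 921. With 1 array left out, Cacna1e ranged from −0.00918 to 0.12, Cacna1g from −0.0172 to 0.11, Cacna1h from −0.12 to 0.0485 and Cacna2d1 from −0.0747 to 0.0243. The count over all probes was 3, and 1 where marked spots stayed, with 1 probe per gene (fewer probes tested) and with the Cy5 channel alone, 0 within slide 2 in limma (4 arrays, 2390 at an unadjusted p under 0.05), and 2 to 4 with 1 array left out. Map3k12 was at −1.26 where marked spots stayed (adjusted p = 0.969), −1.18 with the Cy5 channel alone (0.0718) and −1.81 within slide 2 (0.0555), where the Cy3 signal of cKO replicate 2 stood apart (314). With the replicate block 2 probes passed, none of them a channel probe, and 0 of 10 samples correlated best with their own number. Signal over background limits Cacna1b, Cacna1c, Cacna1d and Cacna1e.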

Other observations

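The dim Cacna1h probe A_55_P1986591 varied in the reference channel, which carried the same RNA on every array. Its Cy3 signal was 100, 73, 67, 105 and 101 on cKO arrays and 61, 55.5, 112.5, 59 and 106.5 on WT arrays, a highest over lowest ratio of 2.03. A ratio as high or higher was found for 5.59% of kept probes, and the median over all kept probes was 1.22. The Cy5 signal of that spot was 168, 109, 93, 169 and 116 on cKO arrays and 93.5, 102.5, 151.5, 101 and 191 on WT arrays. The 4 arrays of slide 2 and cKO replicate 3 had the lower Cy3 signals. Among the other 12 tested channel probes the highest over lowest Cy3 ratio was 1.09 to 1.68.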
